A study of Mus musculus with 30 samples.

Results

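The genes described here lay on the same side of wild type in both Mnx1 knockout lines of mouse motor neurons. A gene was kept when every one of the 4 knockout RNA libraries, 2 of line HD and 2 of line EH, stood above both wild-type libraries (a shared rise) or below both (a shared fall). Levels were compared as CPM, counts scaled to library size by edgeR's TMM method. Of 45706 genes listed in the deposited files, 15565 had enough counts to be tested, and 2715 of these (17.4%) met the rule, with 1385 shared rises (8.9% of the tested genes) and 1330 shared falls (8.54%). The members were chosen by these RNA levels, so the differences from wild type given below describe the members and test nothing.

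The cells were motor neurons induced from embryonic stem (ES) cells and collected on day 6. All 3 motor neuron groups, wild type included, received the same agents, which were DAPT (a blocker of Notch signalling, 5 µM) and, each at 1 µM, doxycycline, retinoic acid and SAG, which activates Smoothened in the Hedgehog pathway. Both knockout lines have the genotype label Mnx1KO and wild type has the label WT, each group has 2 poly(A)-selected stranded RNA libraries, and neither line name is explained in the labels. The labels do not say that libraries of a group came from separate cultures, so errors and p-values measure only the spread between these libraries, which may be technical. Total counts were 11.2 and 12.4 M in HD, 13.9 and 13.9 M in wild type, and 39.8 and 39.7 M in EH, so the EH values have the smallest counting error.

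Mnx1, also called Hb9, is a homeodomain transcription factor that spinal motor neurons switch on as they leave the cell cycle and that is known for holding down programmes of other neurons. Motor neurons then diversify into columns by their position and their targets, with Hox proteins, Foxp1 and Pou3f1 among the factors that mark limb-innervating cells. Axon guidance receptors, cadherins and neurotransmitter receptors are among the genes through which such identities show.

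Mnx1 RNA itself was not a member. It stood at 465 and 416 CPM in wild type, 430.3 and 368 in HD and 538 and 678 in EH, with the wild-type libraries inside the range of the knockout libraries. Its fitted log2 fold change was -0.14 ± 0.15 in HD and 0.46 ± 0.15 in EH (± gives the standard error throughout), and a total over the gene would not reveal an edit within it, so this level does not check the genotype label. Of 24 spinal motor neuron markers 23 were measured, and their summed level was 8144 to 8610 CPM in wild type, 9214 to 9561 in HD and 9188 to 11694 in EH. The cholinergic genes Chat (choline acetyltransferase) and Slc18a3 (the vesicular acetylcholine transporter) were present in each of these libraries. Chat stood at 177 and 134 CPM in wild type, 104 and 104 in HD and 126 and 156 in EH. Slc18a3 stood at 445 and 408 CPM in wild type, 380.2 and 364 in HD and 336 and 416 in EH. In bulk libraries, fewer cells of a type and less RNA per cell cannot be told apart.

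Most shared genes differed little. The distance between the nearest wild-type and knockout library had a median of 1.05-fold in the rises and 1.05-fold in the falls (on CPM + 0.5). The fitted log2 fold change had a median of 0.20 in HD and 0.42 in EH among rises, and of -0.27 in HD and -0.59 in EH among falls, while the medians over all tested genes were -0.014 and 0.0029. Nearest libraries stood at least 1.5-fold apart in 38 rises (0.244% of tested genes) and 24 falls (0.154%), and at least 2-fold apart in 9 rises (0.0578%) and 4 falls (0.0257%). A fitted change of at least 2-fold in each line was found in 55 rises and 36 falls, beside 113 of all tested genes (0.726%) with such changes in 1 direction. At the edge of the rule, Zfp983 was just inside as a rise and Slc35e1 just inside as a fall. Zfp983 stood at 13.5 and 13.5 CPM in wild type, 17.1 and 13.5 in HD and 14.3 and 17.9 in EH. Slc35e1 stood at 60.3 and 63.6 CPM in wild type, 55.4 and 60.3 in HD and 57.7 and 55.3 in EH. Pltp, a phospholipid transfer protein gene, was just outside, with 52.1 and 55.4 CPM in wild type, 41.1 and 52.1 in HD and 26.1 and 14.4 in EH.

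**Figure D1:**
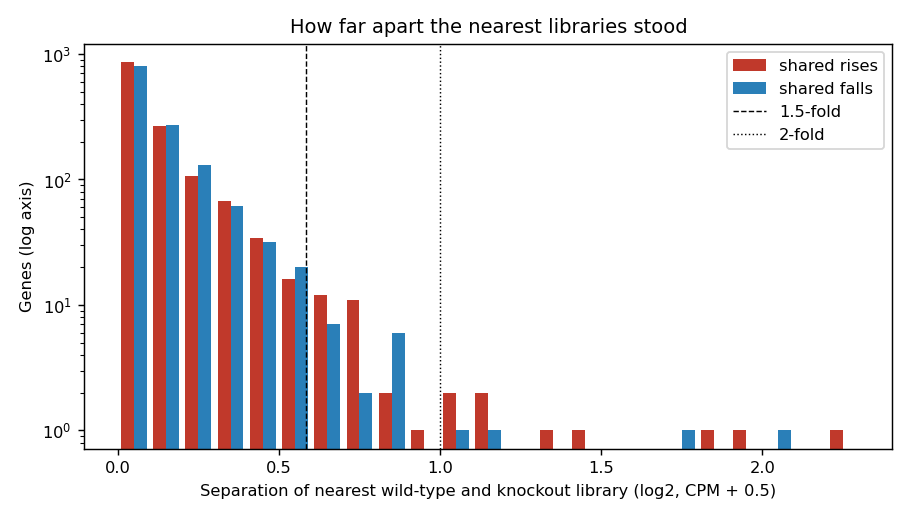
Number of shared genes (y axis, log scale) by the distance between the nearest wild-type and knockout library (x axis, log2 of CPM + 0.5), for shared rises and shared falls, with lines at 1.5-fold and 2-fold. Most genes lie near 0, and 62 lie at or beyond 1.5-fold.

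Among the 62 genes whose nearest libraries stood at least 1.5-fold apart, 19 have a provisional name, no symbol, or belong to pseudogenes or ribosomal protein genes. The rise with the greatest distance was the pseudogene Dynlt1-ps1, listed at 0 in both wild-type libraries, at 1.81 and 1.94 CPM in HD and at 7.13 and 7.75 in EH. The pseudogene Gm10288 was also at 0 in wild type, with 5.06 and 1.38 CPM in HD and 21.4 and 8.12 in EH. Reads of a pseudogene can be shared with its parent gene, so these values are uncertain, and these genes were named after their values were seen. The genes named from here on follow a fixed rule on distance, level and gene lists, unless said otherwise.

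The largest rises with an established name included a calcium-binding protein, a secreted guidance protein and a nicotinic receptor subunit. Cabp7 (ENSMUSG00000009075, chromosome 11, 4736892 to 4747179), a calcium-binding protein of the calmodulin family, stood at 5.5 and 4.6 CPM in wild type, 16.6 and 16.8 in HD and 16.4 and 25.8 in EH. All 4 knockout libraries were at or above 16.4 CPM and both wild-type libraries at or below 5.50. The fitted log2 fold change of Cabp7 was 1.72 ± 0.26 in HD and 2.06 ± 0.25 in EH. Reln (ENSMUSG00000042453, chromosome 5, 21884454 to 22344705), which encodes the secreted glycoprotein reelin that guides migrating neurons, stood at 12.3 and 14.6 CPM in wild type, 36 and 30.9 in HD and 52.7 and 42.2 in EH, with log2 fold changes of 1.32 ± 0.17 in HD and 1.82 ± 0.16 in EH. Wild type was lowest in both cases, and neither Cabp7 nor Reln passed edgeR's test between the lines (adjusted p = 0.325 and 0.0627), with HD minus EH log2 differences of -0.34 ± 0.23 and -0.50 ± 0.16.

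Car10 (a carbonic anhydrase-related protein without the usual enzyme activity), Pdzrn4 (a PDZ and RING finger protein), Synpr (the synaptic vesicle protein synaptoporin) and Ebf3 (an early B-cell factor transcription factor of neurons) were also among the 14 named rises with the greatest distance. Car10 stood at 15.1 and 16.3 CPM in wild type, 51.5 and 46.8 in HD and 37 and 68 in EH. Synpr stood at 2.47 and 2.52 CPM in wild type, 7.32 and 8.1 in HD and 4.96 and 5.96 in EH, so that HD was the higher line. Ebf3 stood at 28.6 and 29.7 CPM in wild type, 53.6 and 56.7 in HD and 52.7 and 82 in EH. The nearest libraries were 2.23-fold apart for Car10, 2.01-fold for Pdzrn4, 1.81-fold for Synpr and 1.76-fold for Ebf3. Cxcr4, the receptor of the chemokine Cxcl12, stood at 13.8 and 18.1 CPM in wild type, 41.7 and 35.4 in HD and 31.2 and 65.7 in EH, and its 2 EH libraries lay farther from each other than its HD libraries did. Tmtc1 (a mannosyltransferase of the endoplasmic reticulum) and Bace2 (an aspartyl protease related to beta-secretase) were higher in EH than in HD, with log2 fold changes from wild type of 0.93 ± 0.17 in HD and 1.85 ± 0.17 in EH for Tmtc1 and of 0.89 ± 0.14 in HD and 1.56 ± 0.14 in EH for Bace2. Dbh, dopamine beta-hydroxylase of noradrenaline synthesis, was near the lower limit of counting in wild type, at 0.494 and 0.432 CPM in wild type, 1.26 and 1.13 in HD and 4.69 and 3.97 in EH. Cntn6, an adhesion molecule of the contactin family, was also low, at 0.212 and 0.432 CPM in wild type, 1.81 and 1.05 in HD and 2.71 and 4.9 in EH.

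**Figure D2:**
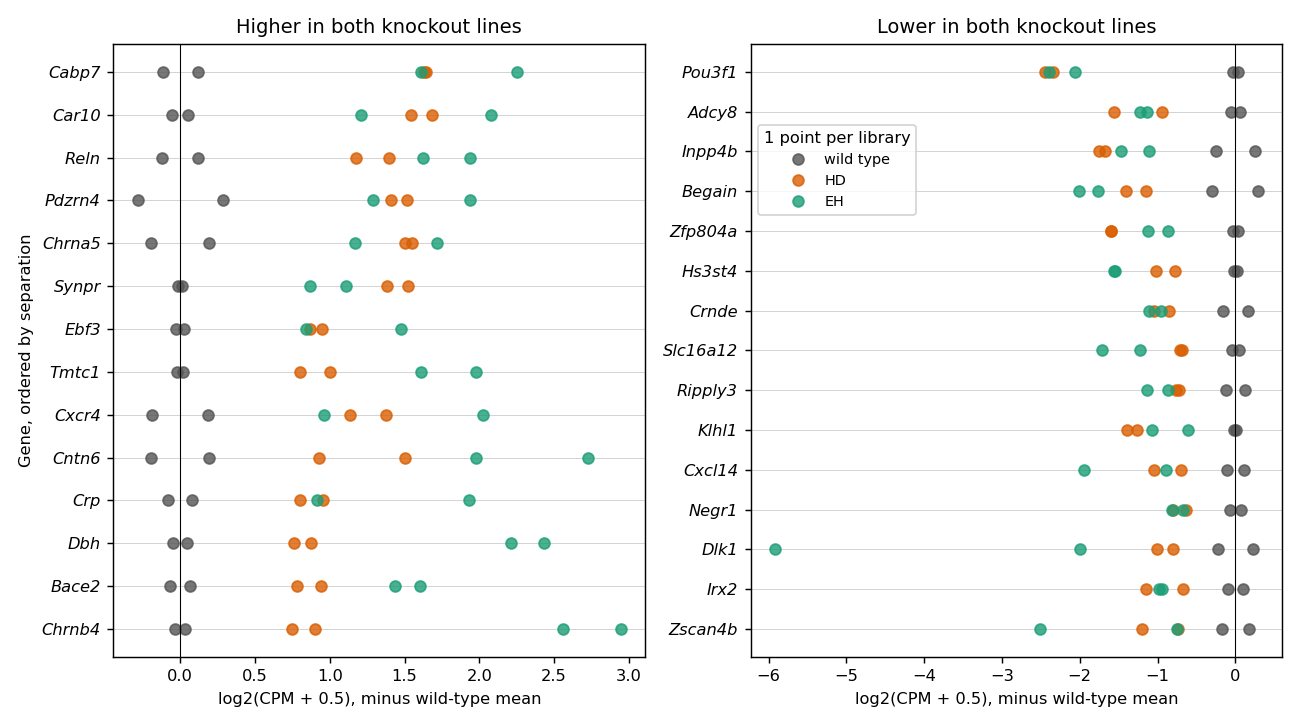
Level in each motor neuron library as log2(CPM + 0.5) minus the wild-type mean (x axis) for the 14 rises (left) and 15 falls named here (right) with the greatest distance between nearest libraries, 1 point per library. In every gene the 4 knockout points lie on 1 side of the wild-type points, and for Chrnb4 and Dbh the EH points lie beyond the HD points.

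Of 8 measured genes for nicotinic acetylcholine receptor subunits, 3 were shared rises and 1 a shared fall, beside 8.9% and 8.54% of tested genes, and the list's median log2 fold change over both lines together was 0.11 (all tested genes, -0.0043). The 3 rises, Chrna5, Chrna3 and Chrnb4, sit next to each other on chromosome 9 and encode subunits of ganglionic-type receptors. Chrna5 (ENSMUSG00000035594, chromosome 9, 54980827 to 55011420) stood at 12.8 and 16.8 CPM in wild type, 42.6 and 43.9 in HD and 33.7 and 49.3 in EH. Chrna3 (ENSMUSG00000032303, chromosome 9, 55010117 to 55026562) stood at 108 and 97.7 CPM in wild type, 154 and 136 in HD and 301 and 453 in EH. Chrnb4 (ENSMUSG00000035200, chromosome 9, 55028154 to 55048953) stood at 24.9 and 23.7 CPM in wild type, 45.9 and 41.2 in HD and 146 and 191 in EH. The lines were close for Chrna5 (HD minus EH 0.06 ± 0.20, adjusted p = 0.863 by edgeR) and differed for Chrna3 (-1.38 ± 0.19, adjusted p = 0.00711) and Chrnb4 (-1.95 ± 0.15, adjusted p = 0.00187), where EH was higher. The gene models of Chrna5 and Chrna3 overlap at their ends, and the sources used here do not say whether counting used strand, so reads in that overlap are uncertain. Chrnb1, the beta subunit of the muscle receptor, was the shared fall, at 7.41 and 8.2 CPM in wild type, 5.51 and 6.8 in HD and 6.91 and 4.12 in EH. It was not a fall with the deposited TPM (a level per transcript length), while the 3 rises were counted with every scaling. Chrna4, Chrnb2 and Chrna7, subunits of the common brain receptors, had knockout and wild-type libraries that overlapped.

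**Figure D3:**
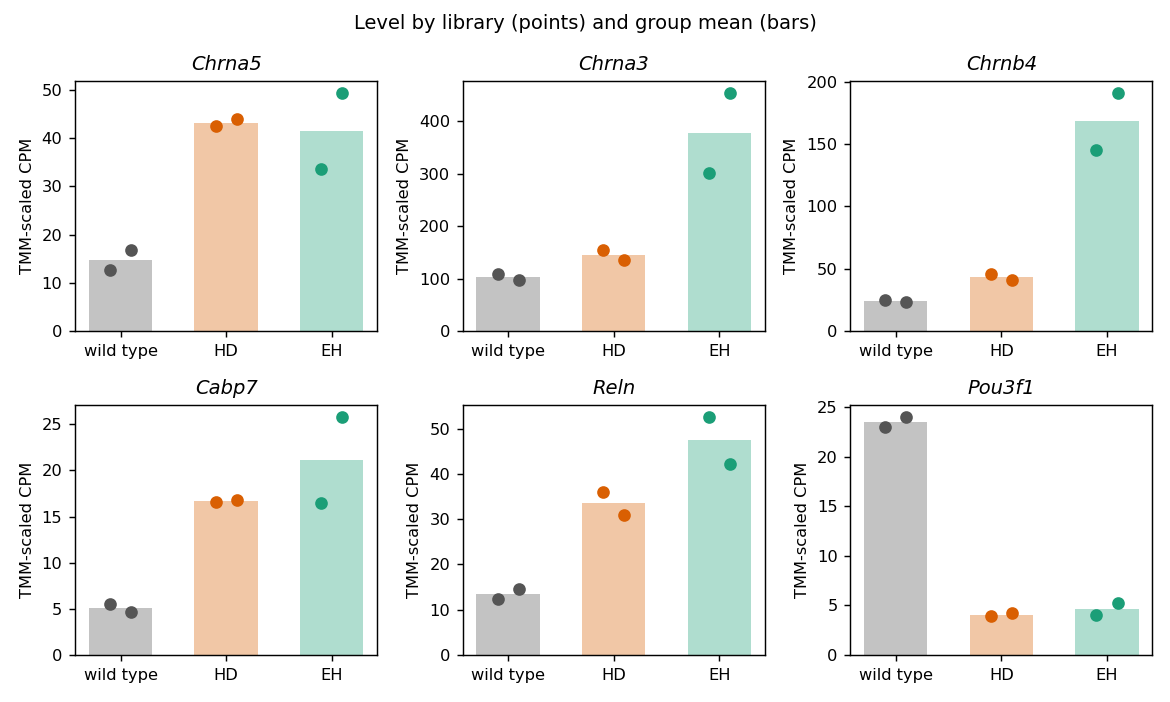
CPM (y axis) of Chrna5, Chrna3, Chrnb4, Cabp7, Reln and Pou3f1 in wild type, HD and EH, with 1 point per library and bars at the mean of 2 libraries. Chrna5 stands at like levels in both lines, Chrna3 and Chrnb4 stand higher in EH, and Pou3f1 stands below 5.3 CPM in all knockout libraries.

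Genes of axon guidance and of cell adhesion were more often among the rises than among the falls. Of 39 measured axon guidance genes, 12 were shared rises (30.8%, beside 8.9% of tested genes) and 1, the ephrin gene Efnb1, a shared fall, and the list's median log2 fold change was 0.15 over both lines. By line the median was 0.16 in HD and -0.017 in EH. In EH against wild type, edgeR called 10 of the 39 higher and 8 lower, beside 9.61% and 11.6% of all tested genes. The rises held Reln, the Eph receptors Epha3 and Epha7 with the ligand Efna5, the plexins Plxna1, Plxna2 and Plxna4 with the neuropilin Nrp2 and the semaphorins Sema3c and Sema6a, and Slit2 with its receptor Robo1. Plxna4, a co-receptor of semaphorins, stood at 12.1 and 12.4 CPM in wild type, 17.8 and 16.1 in HD and 21.8 and 26.1 in EH. Robo1 stood at 149.7 and 137 CPM in wild type, 229 and 220.1 in HD and 173 and 237 in EH, and Slit2 at 1059 and 1002 CPM in wild type, 1153 and 1063 in HD and 1550.1 and 2225 in EH. Nrp2 stood at 96.7 and 98.8 CPM in wild type, 115 and 111 in HD and 175 and 235 in EH, with EH above HD (-0.86 ± 0.14, adjusted p = 0.0099 by edgeR). With the deposited TPM 11 of these genes were rises and 4 falls.

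Of 24 measured cadherins and protocadherins, 8 were shared rises (33.3%) and 1, the epithelial cadherin Cdh1, was a shared fall, with a median log2 fold change of 0.24. By line the median was 0.30 in HD and 0.25 in EH. EdgeR called 3 of the 24 higher and 7 lower in EH against wild type, beside 9.61% and 11.6% of all tested genes. Pcdh11x, a protocadherin on the X chromosome, stood at 4.16 and 5.03 CPM in wild type, 9.12 and 10 in HD and 7.33 and 6.38 in EH. Cdh2 (N-cadherin), at 223 and 214 CPM in wild type, 269 and 260.4 in HD and 247 and 311 in EH, had a narrow gap between the genotypes. Cdh7, a type II cadherin, was higher in HD, at 0.776 and 1.08 CPM in wild type, 4.07 and 2.75 in HD and 1.26 and 1.17 in EH, and did not meet the rule with TPM. Among 26 measured adhesion genes of the immunoglobulin and leucine-rich families, 7 were rises (26.9%) and 2 falls (7.69%), with a median of 0.29. In EH against wild type, 5 of the 26 were called higher and 5 lower. Lrrn3, a neuronal leucine-rich repeat protein, stood at 9.31 and 8.13 CPM in wild type, 13.6 and 13.3 in HD and 35.5 and 53.3 in EH. Ncam1, the neural cell adhesion molecule, stood at 512 and 516 CPM in wild type, 644 and 583 in HD and 573 and 893 in EH. Negr1, a neuronal growth regulator of the same family of surface proteins, was lower, at 25.5 and 28 CPM in wild type, 17 and 15.1 in HD and 15 and 16.6 in EH. In the cadherins, TPM gave 6 rises and 2 falls, and in the second list 9 and 2.

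Among 23 measured spinal motor neuron markers, 6 were shared rises (26.1%) and none was a shared fall, with a median log2 fold change of 0.14. They were Gfra1 (a receptor of glial cell-derived neurotrophic factor), Nrp2, Cdh7, Nefm (medium neurofilament), Lhx3 (a LIM homeodomain partner of motor neuron genes) and Slit2. Gfra1 stood at 9.1 and 10.4 CPM in wild type, 15.7 and 14.9 in HD and 19.5 and 31.8 in EH. Nefm stood at 1138 and 889.6 CPM in wild type, 1648 and 1181 in HD and 1829 and 2574 in EH. Lhx3 had a narrow gap, with 332 to 349 CPM in wild type and 353 to 411 in the knockout libraries. With TPM, 3 of these genes met the rule, and Lhx3 and Cdh7 did not. None of the 9 measured cholinergic genes and none of the 11 measured posterior Hox genes was shared in either direction. With total-count scaling, 1 fall was counted on the cholinergic list and 1 among the 23 motor neuron markers.

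Genes of visceral and cranial motor neurons numbered 13, of which 5 were shared rises (38.5%) and 2 shared falls (15.4%), with a median log2 fold change of 0.23. By line the median was -0.20 in HD and 0.16 in EH. The list's summed level was 371 and 365 CPM in wild type, 342 and 363 in HD and 339 and 354 in EH. With TPM 4 of the 13 were rises and 3 falls. Tbx20, a T-box factor of cranial motor neurons, stood at 5.86 and 3.88 CPM in wild type, 11.7 and 11.6 in HD and 14.4 and 9.41 in EH. Hmx2 and Hmx3, homeodomain factors also known from the inner ear and hypothalamus, were low throughout, with Hmx2 at 0.635 and 0.791 CPM in wild type, 3.07 and 2.11 in HD and 1.9 and 1.43 in EH. Phox2a, a homeodomain factor of visceral motor and noradrenergic neurons, stood at 4.8 and 4.53 CPM in wild type, 5.96 and 7.93 in HD and 5.95 and 7.78 in EH. Nos1, the neuronal nitric oxide synthase of visceral preganglionic neurons, was lower, at 40 and 44.8 CPM in wild type, 31.4 and 40 in HD and 27.3 and 25.5 in EH. Dbh, above, was 1 of 12 monoaminergic genes measured, with 1 rise and 1 fall.

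Other neuronal lists differed in their counts. Of 25 pan-neuronal genes, 5 were rises and none a fall. Gap43, a growth cone protein, stood at 507 and 480.1 CPM in wild type, 679.8 and 658 in HD and 695 and 952 in EH. Syt4, a synaptotagmin of dense-core vesicles, stood at 20.2 and 21.1 CPM in wild type, 76.6 and 62.3 in HD and 26.5 and 30.6 in EH, much higher in HD than in EH (1.28 ± 0.14, adjusted p = 0.00389 by edgeR). Of 18 genes for GABA and glycine transmission, 4 were rises, among them the GABA receptor subunit genes Gabra2 and Gabrb1, though with TPM 1 was a rise and 1 a fall. Among neuropeptide precursors, Adcyap1 (the peptide PACAP) stood at 0.494 and 0.432 CPM in wild type, 0.994 and 1.38 in HD and 1.7 and 3.37 in EH. Pnoc (the nociceptin precursor) stood at 0.141 and 0.216 CPM in wild type, 2.17 and 2.19 in HD and 0.271 and 0.233 in EH, so that HD was far above EH and EH only just above wild type. Cartpt, the CART peptide precursor, was the only fall of that list of 16, at 7.27 and 6.9 CPM in wild type, 6.05 and 6.72 in HD and 2.66 and 1.61 in EH. Among 33 ion channel genes, 2 were rises and 2 falls, shares of 6.06% each, below those of all tested genes.

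Among trophic factors and receptors, 5 of 20 were rises (among them Ntrk3, Gfra1, Gfra3 and Bdnf) and 3 falls (Nrtn, Gdnf and Igf2). Ntrk3, the receptor of neurotrophin 3, stood at 3.17 and 2.09 CPM in wild type, 5.15 and 4.7 in HD and 5.33 and 8.45 in EH. Bdnf, brain-derived neurotrophic factor, stood at 0.847 and 0.575 CPM in wild type, 0.994 and 1.46 in HD and 1.8 and 1.32 in EH. Nrtn, the neurturin ligand of the Gfra family, stood at 3.53 and 2.88 CPM in wild type, 2.08 and 2.11 in HD and 0.271 and 0.0778 in EH. The rises of this list were mostly receptors and the falls were ligands.

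Pou3f1 was the established gene with the widest gap in either direction. Pou3f1 (ENSMUSG00000090125, chromosome 4, 124657646 to 124660655), a POU domain transcription factor also called Oct6 or SCIP that marks subsets of limb-innervating motor neurons, stood at 23 and 24 CPM in wild type, 3.88 and 4.21 in HD and 4.07 and 5.24 in EH. The highest knockout library was at 5.24 CPM and the lowest wild-type library at 23.0, a distance of 4.10-fold on CPM + 0.5. The fitted log2 fold change was -2.54 ± 0.19 in HD and -2.34 ± 0.18 in EH, and edgeR's test between the lines was not passed (-0.20 ± 0.20, adjusted p = 0.5). It was the only shared gene among 10 measured POU factors, though with total-count scaling and with TPM 2 met the rule. Its relatives overlapped between genotypes, with Pou3f3 at 37.1 and 41.3 CPM in wild type, 34.6 and 32.2 in HD and 31.8 and 37.4 in EH and Pou3f2 at 9.38 and 8.34 CPM in wild type, 10.8 and 13.1 in HD and 7.5 and 7.91 in EH.

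The other leading falls came from several gene families. Begain, a guanylate kinase-associated postsynaptic protein gene, stood at 174 and 116 CPM in wild type, 63.9 and 53.3 in HD and 41.3 and 34.7 in EH, and both knockout lines were below both wild-type libraries by a wide margin although the wild-type libraries differed from each other. Zfp804a, a zinc finger protein gene, stood at 30 and 28.8 CPM in wild type, 9.4 and 9.39 in HD and 15.8 and 13.3 in EH, lower in HD than in EH. Hs3st4, a heparan sulfate 3-O-sulfotransferase, stood at 5.71 and 5.54 CPM in wild type, 3.07 and 2.51 in HD and 1.6 and 1.58 in EH. Irx2, an Iroquois homeodomain factor, stood at 125 and 109 CPM in wild type, 73.4 and 52.5 in HD and 58.9 and 60.3 in EH, and its neighbour in the family Irx3 at 171 and 145 CPM in wild type, 98.6 and 99 in HD and 119 and 103 in EH. Crnde, a long noncoding RNA gene, stood at 22.3 and 17.7 CPM in wild type, 10.8 and 9.39 in HD and 8.96 and 10 in EH. Adcy8 (a calcium-stimulated adenylyl cyclase) and Inpp4b (an inositol polyphosphate phosphatase) were low, with Adcy8 at 3.25 and 2.95 CPM in wild type, 0.723 and 1.38 in HD and 1.14 and 1.04 in EH and Inpp4b at 3.46 and 2.3 CPM in wild type, 0.542 and 0.486 in HD and 1.04 and 0.7 in EH. Inpp4b did not meet the rule with TPM. Dlk1, an imprinted Delta-like surface protein gene, stood at 380.1 and 278 CPM in wild type, 187 and 162 in HD and 81.1 and 4.87 in EH. As a ratio, the EH libraries of Dlk1 differed from each other more than its HD libraries did from wild type. Dlk1 (ENSMUSG00000040856, chromosome 12, 109452485 to 109463336) and Begain (ENSMUSG00000040867, chromosome 12, 109032181 to 109068242) lie near each other. Zscan4b belongs to a family of near-identical copies, so its counts are uncertain. Klhl1, Cxcl14, Ripply3 and Slc16a12 made up the rest of the 15.

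Of 18 measured genes of motor columns and pools, 6 were shared falls (33.3%, beside 8.54% of tested genes) and 4 shared rises (22.2%), with a median log2 fold change of -0.39. The falls were Pou3f1, Zfp804a, Aldh1a2, Mecom, Nr2f2 and Etv4. Aldh1a2, the retinaldehyde dehydrogenase that makes retinoic acid in limb-level motor neurons, stood at 12.9 and 12.3 CPM in wild type, 9.12 and 9.55 in HD and 3.03 and 1.48 in EH. Mecom, a zinc finger transcription factor, stood at 50.7 and 50.8 CPM in wild type, 22.3 and 21.2 in HD and 40.9 and 20.7 in EH. Etv4, an ETS factor of motor pools, stood at 6.07 and 4.6 CPM in wild type, 4.43 and 4.53 in HD and 3.28 and 1.5 in EH. The rises were Epha3 with the Hox cofactors Meis1, Meis2 and Pbx3. Pbx3 stood at 162 and 175 CPM in wild type, 375 and 366 in HD and 238 and 325 in EH. Meis1 stood at 203 and 189 CPM in wild type, 252 and 226 in HD and 330.1 and 501 in EH. These counts, 4 rises and 6 falls, were the same with total-count scaling and with TPM. Foxp1, the factor of lateral column neurons, was not shared, since HD stood above wild type and EH did not.

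Of 16 measured genes of retinoic acid synthesis, binding and response, 5 were shared falls (31.3%) and none was a shared rise, with a median log2 fold change of -0.31. Besides Aldh1a2 these included the receptors Rarg and Rxrb and the reductase Dhrs3. Rarg stood at 17.1 and 18.8 CPM in wild type, 13.5 and 15.2 in HD and 12 and 8.76 in EH. Dhrs3 stood at 32.7 and 36.4 CPM in wild type, 27.6 and 30.1 in HD and 22.5 and 19.6 in EH. Rxrb differed by a narrow margin only. With TPM the falls numbered 7. All groups received the same dose of retinoic acid, per the labels.

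Of 28 measured interferon response genes, 12 were shared falls (42.9%) and none was a shared rise, with a median log2 fold change of -0.67. Ifit3, an interferon-induced antiviral protein, stood at 4.8 and 5.32 CPM in wild type, 2.89 and 3.4 in HD and 2.44 and 2.49 in EH. Oas1a, an antiviral oligoadenylate synthetase, stood at 32.2 and 38.5 CPM in wild type, 21 and 31.5 in HD and 11.2 and 12.7 in EH. Irf7, an interferon regulatory factor, stood at 16.7 and 16.5 CPM in wild type, 9.49 and 16.2 in HD and 6.88 and 11.3 in EH. Samd9l, another interferon-induced gene, stood at 13.1 and 12.3 CPM in wild type, 6.78 and 10.4 in HD and 2.59 and 2.02 in EH, with EH below HD (1.90 ± 0.26, adjusted p = 0.00677 by edgeR). The count was 12 with every scaling. In 1 HD library some of these genes lay close to wild type, as for Irf7. The list's summed level was 632 and 719 CPM in wild type, 463 and 635 in HD and 455 and 543 in EH, so 1 HD library reached the lower wild-type value.

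Some markers of non-neural cells were among the falls. Of 21 measured trophoblast genes, 3 were shared falls (14.3%, beside 8.54% of tested genes), the placental cathepsins Ctsr and Ctsq and the imprinted Phlda2. The median log2 fold change of the trophoblast list was -0.057 in HD and -2.30 in EH, so the list as a whole was low in EH only. Ctsr stood at 20.1 and 19.6 CPM in wild type, 15.8 and 13.9 in HD and 3.53 and 1.48 in EH. Ctsq stood at 20 and 15.7 CPM in wild type, 15.2 and 13.6 in HD and 2.64 and 1.19 in EH. The summed level of the trophoblast list was 1370 and 1584 CPM in wild type, 1169 and 1606 in HD and 426 and 196 in EH, so it was low in EH and overlapped wild type in HD. The summed level of 10 mesoderm, fibroblast and endothelium markers was 309 and 350 CPM in wild type, 272 and 348 in HD and 183 and 113 in EH, and 2 were falls (Col3a1, Pdgfrb) and 2 rises (Kdr, Acta2). Of 26 imprinted genes, 5 were falls (Dlk1, Gnas, Grb10, Igf2, Phlda2) and 2 rises (Zdbf2, Mest). Igf2, an insulin-like growth factor of placenta and mesoderm, stood at 1425 and 1707 CPM in wild type, 1130.5 and 1316 in HD and 236 and 23.2 in EH. The part of such cells in the size of the EH falls was not tested.

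Epithelial and endodermal markers were mixed, with 3 falls (Cdh1, Cldn6, Epcam) and 2 rises (Lama1, Ttr) among 15. Cdh1 stood at 78.5 and 97.5 CPM in wild type, 63.4 and 63.9 in HD and 43.9 and 17.7 in EH. Lama1, a laminin chain, stood at 118 and 127 CPM in wild type, 172 and 141 in HD and 304 and 905 in EH. Of 22 genes of stress and p53 response, 5 were falls (22.7%), among them Trib3, Atf3 and Fos, and 1, Gadd45a, was a rise. Of 23 pluripotency genes, Lin28b was a rise, at 13.9 and 14.8 CPM in wild type, 24 and 23.7 in HD and 28.4 and 31.5 in EH, and Utf1 a fall, at 7.34 and 7.26 CPM in wild type, 4.07 and 5.51 in HD and 4.66 and 0.752 in EH. Their summed level was 312 and 321 CPM in wild type, 283 and 272 in HD and 491 and 484 in EH. Cyclins Ccnd1 and Ccnd2 were the shared falls among 24 cell cycle genes (8.33%, near the 8.54% of all tested genes), and no gene of that list was a rise. With TPM 1 gene of the list was a fall, and Ccnd2 did not meet the rule.

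**Figure D4:**
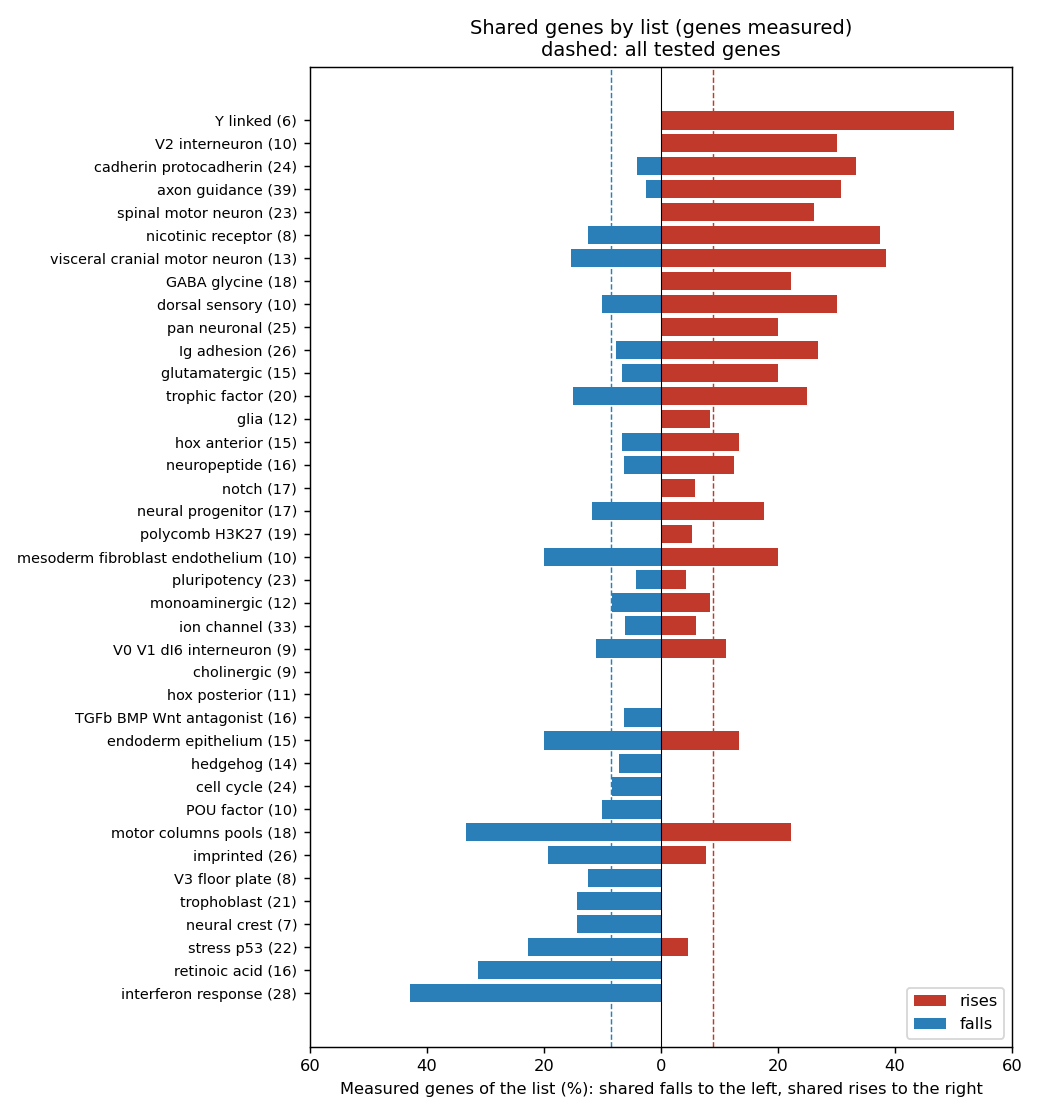
Percent of the measured genes of each of 39 lists that were shared falls (left of 0) or shared rises (right of 0), with the number of measured genes in brackets and dashed lines at the shares of all tested genes, 8.54% and 8.9%. Axon guidance and cadherin genes extend to the right, and interferon response and retinoic acid genes to the left.

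Placed on chromosomes, the shared genes were spread over the genome. The X chromosome had 78 rises among 599 tested genes (13.0%) and 36 falls (6.01%). Chromosome 18 had 14.0% rises and 4.66% falls, and chromosome 19 had 5.33% rises and 11.7% falls. Of 10 tested genes of the Y chromosome 3 were rises. Ddx3y, an RNA helicase gene there, stood at 17.6 and 14.7 CPM in wild type, 19.6 and 19 in HD and 47.4 and 51.6 in EH, so EH was far above HD. Of 13 other tested genes within 1 Mb of Mnx1, only Ube3c was shared. Ube3c, a ubiquitin ligase, stood at 262 and 264 CPM in wild type, 304 and 296 in HD and 339 and 419.9 in EH.

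Level in wild type was like that of other genes for the members as a whole. The median was 16.4 TPM for rises and 17.4 for falls, beside 19.4 over all tested genes. Rises whose nearest libraries were at least 1.5-fold apart had a median of 2.60 TPM, and such falls 5.69 TPM. In ES cells the median was 6.19 TPM for rises, 9.49 for falls and 9.99 for all. Pou3f1 was at a mean of 11.1 TPM in wild-type motor neurons and 26.1 in ES cells, while Chrna3 was at 60.6 and 0.01 TPM and Begain at 163 and 2.02.

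The 2 lines differed in the size of their shared changes. Both are compared with the same wild-type libraries, so their fold changes are given side by side only. The EH fold change was the larger in 1125 of 1385 rises (81.2%) and 1125 of 1330 falls (84.6%), and it was the larger in 73.2% of all tested genes. By edgeR's test of HD against EH, 184 rises (13.3%) and 275 falls (20.7%) were called at an adjusted p of 0.05, beside 21.2% of all tested genes. The test takes its values from the same libraries as the rule. The rule also leaves out genes whose lines lay on opposite sides of wild type, which all tested genes include. The shares of rises and falls are therefore not free of the rule, and their distance from that of all genes is a description only. Among those called, EH was the farther from wild type in 162 of 184 rises and in 268 of 275 falls. Among all genes called, EH was the farther in 2970 of 3303.

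The line that stood farther away depended on the gene. EH was farther for Chrnb4, Lrrn3, Dbh and Nrtn, and HD was farther for Syt4, Cdh7, Pnoc and Zfp804a. For 4 genes with like levels in both lines the HD minus EH log2 difference was -0.20 ± 0.20 for Pou3f1, 0.06 ± 0.20 for Chrna5, 0.02 ± 0.14 for Negr1 and 0.08 ± 0.16 for Irx2. None of these 4 passed the test, which does not show that the lines are equal. EH was also sequenced more deeply, and line and depth cannot be told apart.

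EdgeR's fit of both lines together against wild type called 127 genes (0.816%), 44 higher (0.283%) and 83 lower (0.533%). Of these 90 were members (36 rises, 54 falls) and 37 were not. Among the 37, the lines lay on opposite sides of wild type in 13. The same fit called 27 genes in HD (0.173%) and 3301 in EH (21.2%), with 0.135% and 9.61% of tested genes higher and 0.0385% and 11.6% lower. The shared genes held 8 rises and 3 falls called in HD and 481 rises and 519 falls called in EH. The rule used these contrasts, so the counts show only how the rule and the fit divide the genes. Pou3f1 had the smallest adjusted p of the named genes, 0.00787 (3.67e-24 to 0.282 over the alternatives tried), and those of Chrnb4, Reln and Begain were 0.0181, 0.0256 and 0.0257. The 127 calls fell to 0 when any 1 of the HD or wild-type libraries was left out, with 1487 to 2535 genes then at an unadjusted p under 0.05.

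Histone marks and Mnx1 regions came from ChIP-seq of wild type and HD alone, so EH is not covered, and 1 list of regions was deposited for each mark and genotype, so no spread between replicates can be had. A start was taken from RefSeq's promoter table (build GRCm38.p6, the patch release of mm10) or, where it lists none, as either end of the gene, which gave 14819 of 15565 tested genes, 1338 rises and 1260 falls a start. A mark was counted when a listed region came within 2 kb of a start.

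H3K27me3, the mark of Polycomb repression, was listed in wild type at 24.3% of all tested genes, 21.7% of shared rises and 37.1% of shared falls. In HD these shares were 16.9%, 12.6% and 30.1%. Among the genes at least 1.5-fold apart, 31 of 53 with a start (58.5%, exact binomial 95% interval 44.1 to 71.9, counting error only) had H3K27me3 in wild type and 29 (54.7%) in HD. H3K27me3 goes with low RNA levels, and within levels the shares were 17 of 32 (53.1%) under 5 TPM, where all genes had 43.3%, 11 of 16 (68.8%) from 5 to 20 TPM, where all had 27.4%, and 3 of 5 at 20 TPM or more, where all had 14.0%. Falls of that group are not given alone for H3K27me3, since a start was found for too few of them, 19 of 24 (79.2%). Pou3f1 carried H3K27me3 in both genotypes, at a fold enrichment of 14.0 in wild type and 8.61 in HD, as did Ebf3 (13.6 and 8.38) and Reln (9.87 and 4.75). The authors' fold enrichment values were lower in HD over the whole lists, with a median log2 ratio over all tested genes of -0.57 for H3K27me3 and -1.19 for H3K4me3, so such differences at single genes are not particular to them.

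H3K27ac, a mark of active promoters and enhancers, was listed in wild type at 67.4% of all genes, 73.7% of rises and 54.4% of falls. In HD but not wild type it was listed at 5 of 34 rises at least 1.5-fold apart (14.7%). The exact binomial 95% interval was 4.95 to 31.1 (counting error only). The share was 2.73% of all tested genes, 3.21% of all rises and 3.49% of all falls, so it hardly differed between all rises and all falls. In wild type H3K27ac was listed at only 41.2% of the 34 rises, so a larger part of them was open to a listing in HD only. The 5 rises were Cabp7, Car10, Reln, Pdzrn4 and Kirrel3, with fold enrichments of 2.20, 2.38, 2.56, 2.80 and 1.85 in HD. Kirrel3, a synaptic adhesion protein named here after its values were seen, stood at 6.77 and 5.97 CPM in wild type, 18.9 and 14.5 in HD and 10.6 and 12.6 in EH. None of the 19 falls at least 1.5-fold apart with a start had H3K27ac listed in HD only. With so few genes, and 3.49% of all falls so listed, this draws no contrast with the rises. The HD list is longer, with 20698 regions against 19174, and a region absent from a list may lie just under its threshold. Inside the list labelled wild type the region names read K27ac_KO, and the list is used here as labelled.

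**Figure D5:**
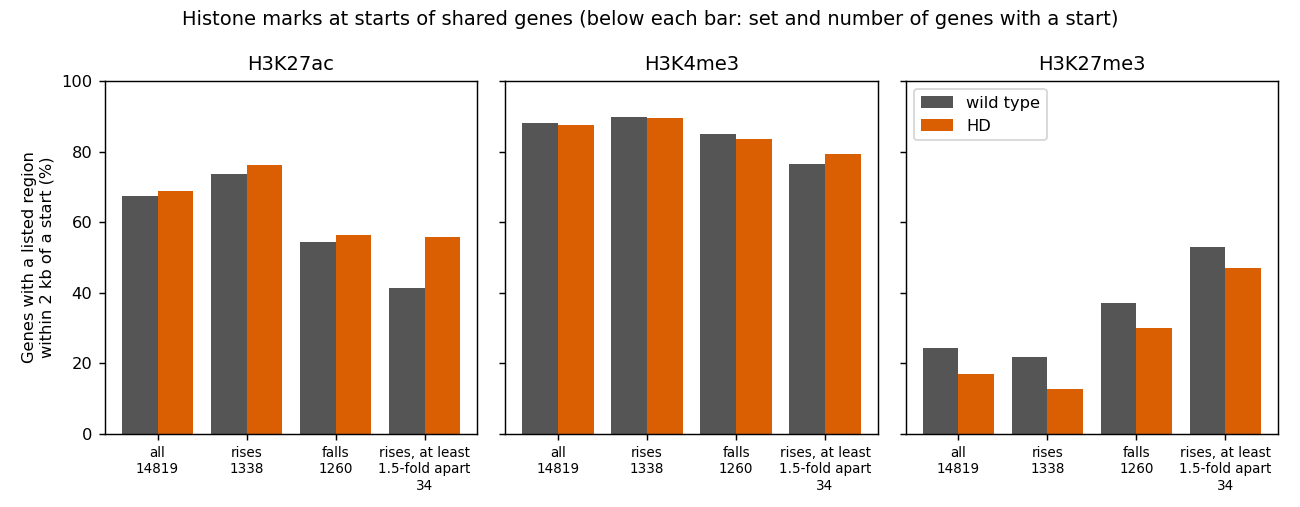
Percent of genes with a listed region within 2 kb of a start (y axis) for H3K27ac, H3K4me3 and H3K27me3 in wild type and HD, for all tested genes, shared rises, shared falls and rises at least 1.5-fold apart, with the number of genes under each set. H3K27me3 is listed at 37.1% of falls in wild type and H3K27ac at 73.7% of rises.

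Mnx1 regions in wild type numbered 5793, and their shares at the starts of shared rises and falls were near that of all tested genes. They came within 2 kb of a start in 20.7% of all genes, 21.7% of rises and 18.3% of falls. They lay inside the gene in 24.4% of all genes, 31.5% of rises and 20.3% of falls, and within 50 kb in 49.7%, 50.4% and 48.6%. A longer gene has more room for a region inside it, and gene length was not taken into account. Among the 53 genes at least 1.5-fold apart with a start, 2 (3.77%, exact binomial 95% interval 0.46 to 13.0) had a region at the start, Crp and Crnde, and 19 (35.8%) had one within 50 kb. Genes of low RNA level had fewer regions in general, 7.34% of those under 5 TPM, and 32 of the 53 genes were at such levels. Of the leading members, Reln, Pdzrn4, Ebf3, Bace2, Hs3st4, Slc16a12 and Negr1 had a region inside the gene, and Cabp7, Car10, Chrna5 and Pou3f1 had none within 50 kb.

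A Mnx1 region came within 2 kb of a start in 11 named members, 10 of them with a start in the promoter table. Among the 3 rises and 3 falls of these with the greatest distance between nearest libraries, the region reached the promoter window itself in Crp, Nrp2 and Crnde, and not in Hmx2, Negr1 and Cldn6. The windows of the first 3 are shown, with those of 2 members whose start is covered by H3K27ac in the HD list only (chosen after their values were seen). The members Dhrs3, Gphn (gephyrin, a scaffold of inhibitory synapses), Slc17a8 (a vesicular glutamate transporter) and Ube3c also had a region at the start, at fold enrichments of 7.14, 3.27, 4.61 and 5.58, and their windows are not shown. Each window runs 5′ to 3′ on the gene's strand from 250 bases before to 50 after the start, from RefSeq (GRCm38.p6), with TAAT, the core that homeodomain proteins are known to bind, in capitals on either strand (so ATTA too). Crp (chr1:172697806-172698105 (plus strand)) encodes the acute-phase C-reactive protein, Nrp2 (chr1:62703067-62703366 (plus strand)) the semaphorin receptor above, and Crnde (chr8:92356071-92356370 (minus strand)) is the fall above. Car10 (chr11:93099040-93099339 (plus strand)) and Reln (chr5:22344656-22344955 (minus strand)) are the rises with H3K27ac listed in HD.
Crp: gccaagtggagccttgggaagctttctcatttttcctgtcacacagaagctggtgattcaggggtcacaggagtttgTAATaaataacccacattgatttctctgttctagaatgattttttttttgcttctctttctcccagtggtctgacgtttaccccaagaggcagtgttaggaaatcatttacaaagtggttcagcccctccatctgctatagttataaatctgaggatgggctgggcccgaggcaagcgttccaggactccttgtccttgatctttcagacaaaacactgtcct
Nrp2: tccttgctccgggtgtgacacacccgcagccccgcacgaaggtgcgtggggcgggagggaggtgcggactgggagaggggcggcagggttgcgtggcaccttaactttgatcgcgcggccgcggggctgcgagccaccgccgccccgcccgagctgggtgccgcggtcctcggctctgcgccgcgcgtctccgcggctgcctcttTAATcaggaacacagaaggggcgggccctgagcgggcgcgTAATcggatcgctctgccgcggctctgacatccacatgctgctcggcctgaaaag
Crnde: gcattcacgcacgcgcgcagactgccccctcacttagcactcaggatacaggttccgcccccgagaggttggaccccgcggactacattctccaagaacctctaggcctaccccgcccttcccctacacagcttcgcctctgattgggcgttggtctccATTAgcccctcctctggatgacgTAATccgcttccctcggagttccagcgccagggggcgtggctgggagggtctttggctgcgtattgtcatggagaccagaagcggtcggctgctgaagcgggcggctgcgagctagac
Car10: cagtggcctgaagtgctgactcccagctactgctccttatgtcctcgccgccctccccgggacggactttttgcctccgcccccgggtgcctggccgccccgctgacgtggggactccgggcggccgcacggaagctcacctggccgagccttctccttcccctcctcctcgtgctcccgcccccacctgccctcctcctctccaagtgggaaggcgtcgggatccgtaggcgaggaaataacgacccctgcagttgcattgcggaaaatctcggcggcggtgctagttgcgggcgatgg
Reln: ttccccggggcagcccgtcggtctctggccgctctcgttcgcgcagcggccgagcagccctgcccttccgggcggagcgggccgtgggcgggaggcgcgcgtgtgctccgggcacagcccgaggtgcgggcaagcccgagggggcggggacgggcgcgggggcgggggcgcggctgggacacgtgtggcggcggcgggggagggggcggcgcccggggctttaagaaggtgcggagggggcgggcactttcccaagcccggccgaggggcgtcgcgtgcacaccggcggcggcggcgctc
The Mnx1 region overlapped the window of Nrp2 by 241 bases and those of Crp and Crnde by all 300, at fold enrichments of 3.00, 3.31 and 5.44 (the authors' values). TAAT occurred on either strand 1 time in the window of Crp, 2 times in that of Nrp2 and 2 times in that of Crnde, and not in those of Car10 and Reln. Of 32851 windows of the same length 58.0% hold TAAT on either strand, and 5.29% hold TAATTA, which is in none of these 5. A match is a description of the letters and not a binding site. Crp stood at 16.1 and 14.4 CPM in wild type, 29.9 and 26.9 in HD and 29.1 and 59.3 in EH, Nrp2 and Crnde at the levels above.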

How the data were processed

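RNA-seq of 6 motor neuron libraries was compared, with 2 ES cell libraries for levels, and ChIP-seq region lists of wild type and HD were set beside it. The build was mm10, and the tools named, without versions or roles, were MACS2, STAR, RSEM, Bowtie2, featureCounts of Subread, Trim Galore, SAMtools and DESeq2, per the submitters' processing notes. Per the file headers, the authors' RNA files hold an expected count and a TPM for each gene. The deposited region lists have no header. From their MACS2 layout, each region has the authors' −log10 q and their fold enrichment, a ratio over background. The authors deposited 1 list per mark and genotype, and how replicates were joined is not given in the sources used here.

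Expected counts were rounded and fitted in R 4.3.3 with edgeR 4.0.16 (TMM, filterByExpr, quasi-likelihood, 1 fit of 6 libraries, 3 residual degrees of freedom, biological coefficient of variation 0.139, Benjamini-Hochberg over all 15565 genes). The code was tested on simulated data. DESeq2 1.42.0 was an alternative. Tables were made with Python 3.11.15, numpy 2.4.6, pandas 2.3.3, scipy 1.17.1 and matplotlib 3.10.9. Region entries of the same start and end were kept once, on the main chromosomes.

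The genes named are the 15 rises and 15 falls with the greatest distance between nearest libraries (a mean of at least 2 CPM in the higher genotype, and no provisional, pseudogene, ribosomal or mitochondrial name), up to 3 shared genes of each of 39 lists, Mnx1, shared genes within 1 Mb of it and genes at the edge of the rule. Some genes that this rule or the lists hold are not reported here and were not replaced, but stay in the counts of shared genes and lists. Values of other genes on the lists, or at least 1.5-fold apart, are given where they help to describe a list and were chosen after their values were seen. The members and the lists were chosen with earlier results of these data known. Symbols were found for 15486 of 15565 tested genes and positions for 14819 (95.2%). Starts came from the promoter table for 11537 genes. Alternatives were other scalings, filters and pseudocounts, DESeq2, a replicate block, each library left out, other windows and stricter thresholds on regions. Depth was 11.2 to 53.2 M counts per library.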

Additional observations from a re-analysis of the deposited data

Results flagged for a closer look

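Among 104 named shared genes, 31 (29.8%) differed between the lines by edgeR's test of HD against EH, with adjusted p-values from 0.00187 to 0.0478. The share was 13.3% of all shared rises, 20.7% of all shared falls and 21.2% of all tested genes. The named genes were chosen by distance and from lists drawn up with earlier results known, so their share does not stand for the shared genes. Each of the 31 lies on 1 side of wild type in both lines. The value in brackets is the HD minus EH log2 difference with its standard error. No explanation of these differences was tested.

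EH was farther above wild type for 12 rises. Those of receptors, transmitter synthesis, adhesion and a neuronal transcription factor were Bhlhe22 (-2.32 ± 0.38), Chrnb4 (-1.95 ± 0.15), Dbh (-1.85 ± 0.27), Lrrn3 (-1.73 ± 0.21), Chrna3 (-1.38 ± 0.19) and Nrp2 (-0.86 ± 0.14). The Y-linked rises were Zfy1 (-1.82 ± 0.36), Eif2s3y (-1.56 ± 0.21) and Ddx3y (-1.36 ± 0.13), and the others were Lama1 (-1.95 ± 0.45), Tmtc1 (-0.92 ± 0.16) and Bace2 (-0.67 ± 0.13). For Bhlhe22, a transcription factor of spinal interneurons, the HD libraries stood at 2.26 and 2.11 CPM and the wild-type libraries at 1.98 and 2.09, so HD hardly differed from wild type, while EH stood at 7.25 and 14.6.

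HD was farther for the 3 rises Syt4 (1.28 ± 0.14), Cdh7 (1.48 ± 0.32) and Pnoc (3.08 ± 0.36) and for the fall Zfp804a (-0.63 ± 0.15).

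EH was farther below wild type for 15 falls. Placental and imprinted genes among them were Ctsq (2.90 ± 0.35), Ctsr (2.56 ± 0.36), Phlda2 (1.45 ± 0.41) and Grb10 (1.43 ± 0.32), on lists whose trophoblast members were low in EH as a whole. The others were Dhrs3 (0.45 ± 0.13), Sfrp1 (0.69 ± 0.12), Pdgfrb (0.84 ± 0.17), Cldn6 (1.13 ± 0.22), Grin2b (1.22 ± 0.19), Cartpt (1.58 ± 0.28), Gadd45b (1.73 ± 0.28), Samd9l (1.90 ± 0.26), Aldh1a2 (2.04 ± 0.32), Pax2 (2.07 ± 0.29) and Nrtn (3.53 ± 0.51). Nrtn had the largest difference of these, with 0.271 and 0.0778 CPM in EH.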

How the results depend on the processing

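The shared rises and falls are a count over 6 libraries, so they grew when 1 was left out, to between 1627 and 2980 rises and between 1476 and 3230 falls, highest without wild-type replicate 1, and genes at least 2-fold apart numbered 14 to 46, highest without wild-type replicate 2. With total-count scaling there were 1138 rises and 1596 falls and with TPM 1125 and 1499, so that rises were 41.6% and 42.9% of the shared genes in place of 51.0%. All 62 genes at least 1.5-fold apart met the rule with total-count scaling and 60 with TPM, a comparison added after the data were seen. The first count was fixed in advance, since TMM factors of 0.973 to 1.02 are too alike for a 1.5-fold gap to close. Of 57 named rises 55 met the rule with total-count scaling and 49 with TPM, and of 47 named falls 47 and 43. Genes at least 2-fold apart numbered 7 with a minimum of 5 CPM and 4 with a pseudocount of 2 CPM, in place of 13.

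The calls of both lines together rested on the tool and on single libraries. In place of 127 there were 953 without a filter on low counts (3711 at an unadjusted p under 0.05), 983 with DESeq2 (2613) and 0 to 3453 with 1 library left out. The count was 0 without HD replicate 1 (1976 unadjusted), 0 without HD replicate 2 (2535), and 0 also without the first (1834) or the second (1487) wild-type library. It was 3453 without EH replicate 1 and 1317 without EH replicate 2. The shared genes called between HD and EH numbered 62 to 1213 in place of 459, lowest without HD replicate 2 (124 without HD replicate 1) and highest without EH replicate 1. Where a group had 1 library left, it was assumed to vary like the others.

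With a replicate block, both lines together gave 5 calls (2656 unadjusted) and HD against EH 294 among the shared genes. The labels give numbers only, and same-numbered libraries deviated with correlations of 0.179 (wild type and HD), -0.140 (wild type and EH) and -0.193 (HD and EH), so they share only a number. Log2 fold changes of named genes kept their sign in all 1060 refits, and 34 moved by more than 1 SD, all with a library left out. For members the kept sign was largely fixed in advance and tests nothing, since the rule puts every knockout library on the same side of wild type.

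Shares of genes with a region depended on windows and thresholds. A Mnx1 region lay within 5 kb of a start in 20.7% of falls (22.4% of all tested genes). Within 20 kb of the gene the shares were 40.9% of rises, 34.9% of falls and 37.2% of all, and within 100 kb 62.0%, 63.4% and 63.4%. With a −log10 q of at least 10, Mnx1 regions were at the starts of 10.1% of rises, 8.57% of falls and 10.2% of all, and within 50 kb of 32.0%, 29.3% and 30.2%. With a −log10 q of at least 5, H3K27me3 was at 10.5% of rises, 26.3% of falls and 15.0% of all in wild type, at 6.43%, 20.1% and 10.4% in HD, and at 43.4% (wild type) and 34.0% (HD) of the genes 1.5-fold apart. Replicates of each group differed beyond counting noise, most in EH. Counting error limits genes near 1 CPM in the HD and wild-type libraries.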
